A study of Homo sapiens with 4 samples.

Results

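The 36 genes described here encode the sensors of the unfolded protein response (UPR), the chaperones and folding enzymes of the endoplasmic reticulum (ER), and the ER-associated degradation (ERAD) machinery. They were chosen by name, and each of the 36 symbols matched a single Ensembl identifier among the 57500 in the count files through GENCODE release 29. By role, 8 are sensors and transcription factors, 18 are chaperones and folding enzymes, and 10 belong to ERAD. RNA-sequencing had been carried out on SUM159, a triple-negative breast cancer cell line that the study treats as metaplastic, to ask how loss of NOS2, which encodes inducible nitric oxide synthase (iNOS), affects gene expression. There was 1 library of parental SUM159 cells and 1 library from each of 3 NOS2KO clones, numbered 1, 5 and 6.

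The knockout had been made by transfection of a NOS2 double nickase plasmid, followed by puromycin selection and screening of resistant clones by iNOS immunoblot and a nitrite/nitrate assay. Each NOS2KO library came from 1 clone, and the parental cells are labelled as controls with no plasmid named, so clonal origin, plasmid, puromycin and loss of NOS2 cannot be told apart. All samples shared the same medium and no treatment is given in the labels. The parental cells had no replicate, and the spread in every test below came from the 3 clones. The study had also silenced XBP1 and CREB3, both among these 36 genes, with siRNA in SUM159 cells while searching for factors that act on TGFB1 and LCN2.

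Newly made secretory and membrane proteins fold in the ER lumen, where Hsp70- and Hsp90-type chaperones, lectin chaperones and disulfide isomerases assist them. When unfolded protein accumulates, the sensors IRE1 (ERN1), PERK (EIF2AK3) and ATF6 are activated. IRE1 splices XBP1 RNA to produce an active transcription factor, ATF6 releases a cytosolic fragment that enters the nucleus, and PERK slows translation while favouring ATF4. XBP1 and the ATF6 fragment raise transcription of chaperones and of ERAD components, which extract misfolded proteins to the cytosol for the proteasome.

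Library totals ranged from 90467395 to 122171287 counts on genes, so that 3 counts, taken as the limit of detection, corresponded to 0.0246 to 0.0332 counts per 1000000 (CPM). NOS2 had 2 counts in parental cells, 3 in clone 1, 18 in the library labelled 5 and 1 in clone 6. These counts could not check the genotypes, so the library in question is named clone 5 as labelled. Markers of a mesenchymal triple-negative line were abundant, though lower in parental cells. VIM was at 1655 CPM in parental cells and 2890 to 3855 in the clones, and CD44 at 454 and 785 to 827. In contrast, ESR1, PGR, EPCAM and CDH1 did not exceed 0.741 CPM. ERBB2 was at 48.3 to 106 CPM and the endothelial marker PECAM1 at 7.06 to 16.1. The leukocyte marker PTPRC was at 4.45 CPM in parental cells and at 68.4, 105 and 41.7 in clones 1, 5 as labelled and 6. Of 13 further leukocyte markers, listed after PTPRC had been seen, 10 stayed under 1 CPM in every library. The remaining 3 were NCAM1, CD14 and HLA-DRA. CD14 was at 12.8 CPM in parental cells and 2.29 to 11.3 in the clones. HLA-DRA was at 2.98 CPM in clone 5 as labelled and at most 0.148 elsewhere. All 13 markers summed to 103.9 CPM in parental cells and 72.6 to 105.5 in the clones, mostly from NCAM1. The part of PTPRC and of these markers in the results was not tested.

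XBP1 and ATF6 act through short promoter elements, and members that carry one are shown here because their RNA moved in different directions. The ER stress response element (ERSE) was searched as ccaat, 9 bases of any kind and ccacg, and ERSE-II as attgg, 1 base and ccacg. Both strands of the 250 bases upstream of each RefSeq start (build GRCh38.p14) were read. A window was found for 33 of the 36 members (all but PDIA3, DERL1 and DERL3). ERSE was present in 6 of the 33 (18.2%), compared with 22 of 27305 promoters in all (0.0806%). ERSE-II was present in 3 members (9.09%), compared with 14 promoters in all (0.0513%). The XBP1-type core tgacgtgg was found in 1 member, HYOU1, where it overlaps an ERSE-II (3.03% against 0.667% of all promoters), and a plain ccaat box in 26 (78.8% against 33.0%). Several members are the textbook targets in which these elements were described, so the shares describe the list. Stretches with a match are printed 5′ to 3′ on the gene's strand, the element's fixed bases in capitals, shortened where GENCODE annotates an untranslated exon. Those of CANX and HSP90B1 lie largely in such exons and are not shown.
HERPUD1 (ERSE-II, chr16:56931985-56932047, plus strand): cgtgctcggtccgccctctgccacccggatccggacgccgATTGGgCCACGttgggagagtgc
HYOU1 (ERSE-II at both sites, chr11:119057234-119057430, minus strand): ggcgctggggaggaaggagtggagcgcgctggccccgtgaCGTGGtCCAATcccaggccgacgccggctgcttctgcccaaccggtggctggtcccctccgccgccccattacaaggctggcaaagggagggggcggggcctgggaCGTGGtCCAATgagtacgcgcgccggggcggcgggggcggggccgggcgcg
CALR (ERSE, chr19:12938359-12938442, plus strand): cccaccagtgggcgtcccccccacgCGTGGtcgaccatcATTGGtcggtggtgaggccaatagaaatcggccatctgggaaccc
XBP1 (ERSE, chr22:28800598-28800661, minus strand): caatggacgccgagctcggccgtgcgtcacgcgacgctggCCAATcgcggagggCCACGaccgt
CRELD2 (ERSE, chr22:49918514-49918612, plus strand): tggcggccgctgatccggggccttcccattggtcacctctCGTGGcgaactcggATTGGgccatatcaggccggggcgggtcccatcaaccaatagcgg
HSPA5 (ERSE, chr9:125241351-125241449, minus strand): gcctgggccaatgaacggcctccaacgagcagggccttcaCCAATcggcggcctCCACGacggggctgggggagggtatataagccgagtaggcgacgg
SDF2L1 (ERSE-II, chr22:21642074-21642164, plus strand): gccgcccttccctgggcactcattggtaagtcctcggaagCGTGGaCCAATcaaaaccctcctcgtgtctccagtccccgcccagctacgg

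Each stretch lies just upstream of its gene, except that of CRELD2, which lies in an intron of a transcript with an earlier start. The element ended at base -107 relative to the RefSeq start in HERPUD1, at bases -69 and -175 in HYOU1, -207 in CALR, -34 in XBP1, -62 in CRELD2, -48 in HSPA5 and -178 in SDF2L1. Among the 5 members that fell by the criterion defined below and are absent from these lines (ERN1, ATF6, DNAJB9, SEL1L and EDEM1), neither element was found in the window searched.

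Across the 36 genes, the RNA of the sensors ERN1 and ATF6, of XBP1, and of several chaperone and ERAD genes was lower in all 3 clones, while that of the lectin chaperone calreticulin (CALR) was higher. Of the 36 genes, 35 had enough counts to be tested, and DERL3, a derlin of secretory tissues, had 4 to 10 counts per library and was left out. A gene met the criterion when edgeR's quasi-likelihood test gave an unadjusted p under 0.05 and the log2 fold change, clones minus parental, was below -1 or above 1. By it 8 members fell (ERN1, ATF6, XBP1, DNAJB9, HYOU1, HERPUD1, SEL1L and EDEM1) and 1 rose (CALR), where 5.34% of the 22511 genes tested fell and 4.24% rose. After adjustment over all genes no member passed 0.05 with edgeR, and 0.00444% of genes did. Unadjusted, 12 members had an edgeR p under 0.05, 11 of them lower. At that limit 1538 of the 22511 genes tested were lower and 1052 higher. DESeq2's Wald test on the same genes gave an adjusted p under 0.05 for 6 members, ERN1, ATF6, DNAJB9, HERPUD1, EDEM1 and CALR. The share of all genes that passed with DESeq2 was not counted, so these 6 cannot be set against it. Without clone 5 as labelled the criterion gave 7 lower members and none higher, and without clone 6 it gave 6 lower and none higher. With a clone left out, the share over all genes was not counted.

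The same genes were set against the parental library one clone at a time, on counts scaled by the trimmed mean of M-values (TMM). Here 11 members were lower by over 1.5-fold in each of the 3 clones, the 8 above with CANX, DERL1 and EDEM3, and 11.8% of the 15280 genes that reached 1 CPM somewhere were. CALR and CREB3L1 were higher by that margin in each clone, as were 8.69% of genes. Singly, 12 members were lower in clone 1 (25.0% of genes were), 12 in clone 5 as labelled (23.8%) and 15 in clone 6 (24.5%). Higher members numbered 5 in clone 1, 5 in clone 5 as labelled and 2 in clone 6, against 21.2%, 22.4% and 22.1% of genes. The parental level lay above all clones in 22 of 35 members (34.1% of genes) and below all clones in 3, CREB3L1, CALR and CRELD2 (28.1%). All these counts share the single parental library, and in bulk RNA, fewer cells of a kind and less RNA per cell cannot be told apart.

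**Figure D1:**
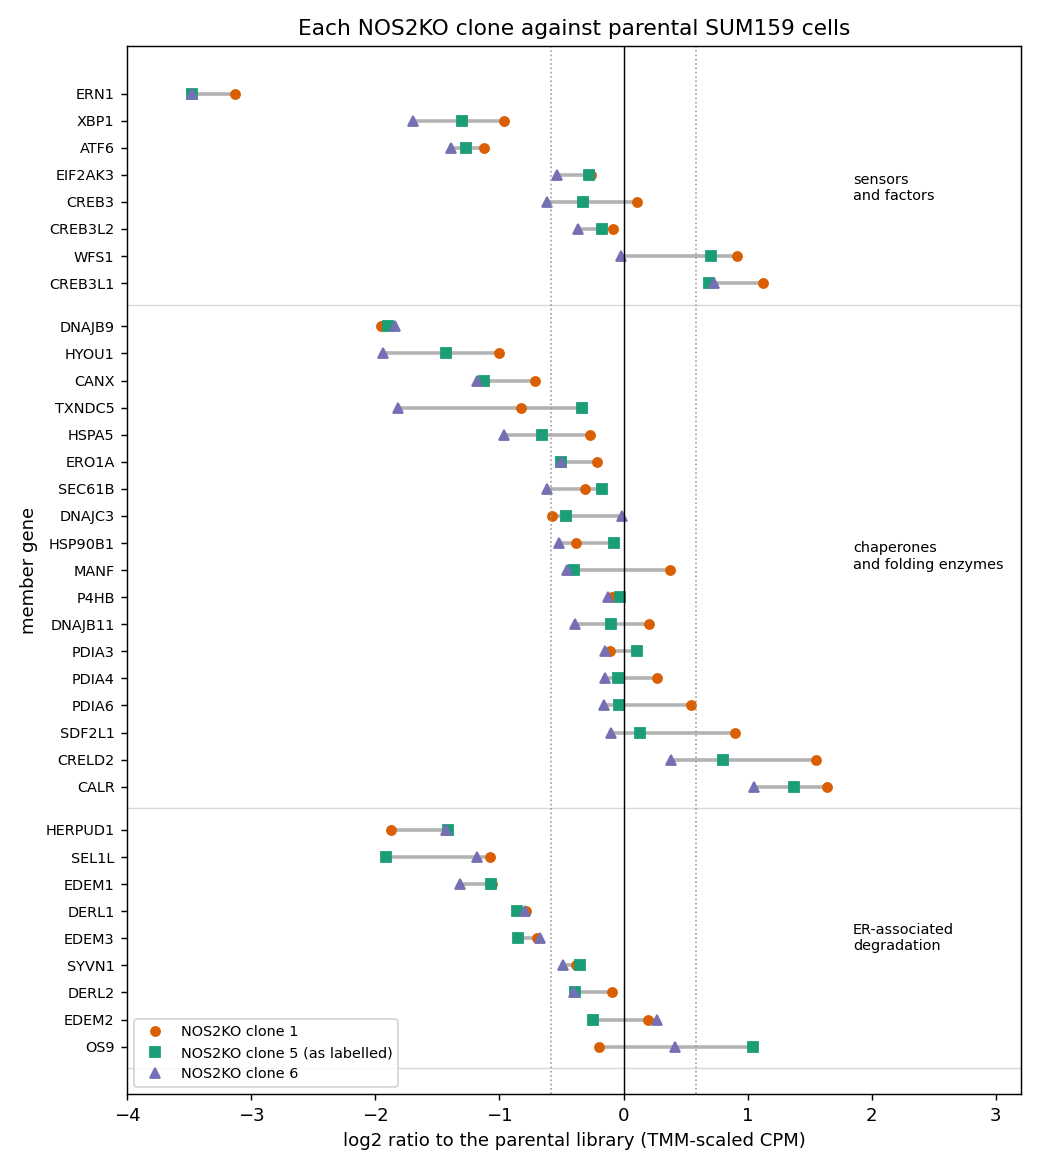
Log2 ratio of each NOS2KO clone to the parental library in TMM-scaled CPM (horizontal axis) for the 35 members tested, grouped by role; each symbol is 1 clone, grey bars join the lowest and highest clone, and dotted lines mark 1.5-fold. ERN1 lies farthest to the left in every clone, at -3.13, -3.48 and -3.48, and CALR farthest to the right, at 1.64, 1.37 and 1.05.

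The median log2 fold change was -0.33 over the 35 members, beside 0.10 over all genes tested, with 26 members below 0 and 9 above. Of the 22511 genes tested, which include genes under 1 CPM in every library, 10259 were below 0 and 12252 above. Over the 15280 that reached 1 CPM somewhere, the median log2 ratio (0.5 CPM added) was -0.07, -0.05 and -0.05 in clones 1, 5 as labelled and 6. Over the members it was -0.26, -0.34 and -0.50. By role, the median fitted log2 fold change was -0.30 for sensors and factors, -0.21 for chaperones and folding enzymes, and -0.74 for ERAD genes. Together the members made up 1.63% of the counts in parental cells, 1.34% in clone 1, 1.37% in clone 5 as labelled and 1.10% in clone 6. Clone 6 thus held the lowest share and parental cells the highest.

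Among the sensors, ERN1 showed the largest difference of any member. ERN1 (ENSG00000178607, chr17:64039142-64130819 on GRCh38) encodes IRE1, the kinase and RNase that splices XBP1. Its level was 104 CPM in parental cells, 11.9 in clone 1, 9.35 in clone 5 as labelled and 9.33 in clone 6. The clones lay close together, at 10.2 ± 1.46 CPM (SD, n = 3), and the parental level was 10.2-fold their mean. The log2 ratio was -3.13 in clone 1 (95% interval -3.22 to -3.05), -3.48 in clone 5 as labelled (-3.57 to -3.38) and -3.48 in clone 6 (-3.58 to -3.38), with exact Clopper-Pearson intervals that cover counting error only. The fitted log2 fold change was -3.35 ± 0.30 (SE), with an adjusted p of 0.259 by edgeR and 1.07e-12 by DESeq2.

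ATF6 (ENSG00000118217, chr1:161766294-161964070), the membrane-bound factor that is cleaved on ER stress, was at 135 CPM in parental cells, 62.0 in clone 1, 55.9 in clone 5 as labelled and 51.5 in clone 6. The parental level was 2.39-fold the clone mean of 56.5 ± 5.24 CPM (SD, n = 3), and no clone approached it. The fitted log2 fold change was -1.26 ± 0.27 (SE), with an adjusted p of 0.314 by edgeR and 0.0218 by DESeq2. EIF2AK3 (ENSG00000172071, chr2:88556741-88627576), which encodes PERK, was at 33.8 CPM in parental cells and at 28.1, 27.8 and 23.2 in clones 1, 5 as labelled and 6. It was thus below parental in every clone, by less than 1.5-fold, with a log2 fold change of -0.36 ± 0.30 (SE) and an adjusted p of 0.662 by edgeR.

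XBP1 (ENSG00000100219, chr22:28794555-28800597), the target of IRE1, was at 259 CPM in parental cells, 133 in clone 1, 105 in clone 5 as labelled and 80.2 in clone 6. All clones were below parental, and they differed among themselves by 1.66-fold. The log2 ratio was -0.96 (95% interval -0.99 to -0.93), -1.30 (-1.34 to -1.27) and -1.69 (-1.73 to -1.66) in that order, each interval apart from the next. The fitted log2 fold change was -1.29 ± 0.38 (SE), with an adjusted p of 0.345 by edgeR and 0.106 by DESeq2. Without clone 6 it was -1.12 and missed the criterion. Gene-level counts do not separate spliced from unspliced XBP1 RNA, and the processed pseudogene XBP1P1 drew at most 10 counts in any library.

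The CREB3 family, ER- or Golgi-anchored relatives of ATF6, differed among its members. CREB3 (ENSG00000107175, chr9:35732335-35737004) was at 57.5 CPM in parental cells, 62.1 in clone 1, 45.9 in clone 5 as labelled and 37.4 in clone 6, so that the parental level fell within the clones' range. Its log2 fold change was -0.25 ± 0.37 (SE), with an adjusted p of 0.813 by edgeR, and its exons overlap those of the far more abundant TLN1 on the opposite strand. CREB3L1 (ENSG00000157613, chr11:46277661-46321422) was at 90.3 CPM in parental cells and at 196, 145 and 149.7 in clones 1, 5 as labelled and 6. That placed every clone above parental, by 1.82-fold on average. The log2 fold change was 0.86 ± 0.32 (SE), with an adjusted p of 0.440 by edgeR and 0.244 by DESeq2. CREB3L2 and WFS1, an ER membrane protein that restrains ATF6, had log2 fold changes of -0.20 and 0.59. WFS1 was at 47.0 CPM in parental cells, at 88.5 and 76.7 in clones 1 and 5 as labelled, and at 46.2 in clone 6, close to parental cells.

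**Figure D2:**
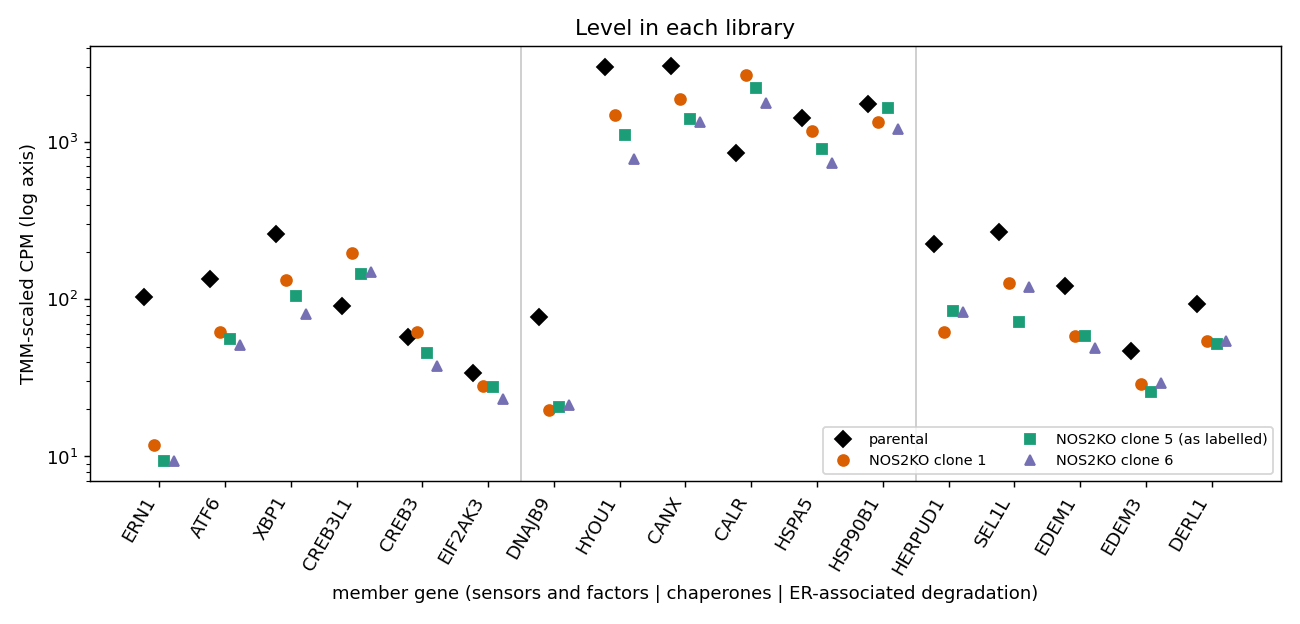
Level of 17 members in each of the 4 libraries as TMM-scaled CPM on a log axis, in the order sensors and factors, chaperones, ERAD; symbols stand for the parental library and the 3 NOS2KO clones, and heights are to be read within a gene. The parental symbol lies above all clones for ERN1 (104 against 9.33 to 11.9 CPM), DNAJB9 (76.8 against 19.8 to 21.4) and HERPUD1 (225 against 61.6 to 84.6), and below all clones for CALR and CREB3L1.

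Of the 18 chaperones and folding enzymes, 2 fell by the criterion (DNAJB9 and HYOU1) and 1 rose (CALR). DNAJB9 (ENSG00000128590, chr7:108569568-108574850) encodes ERdj4, a co-chaperone of BiP that also represses IRE1 and is itself a well-known XBP1 target. It was at 76.8 CPM in parental cells, 19.8 in clone 1, 20.6 in clone 5 as labelled and 21.4 in clone 6. The clones were nearly equal, at 20.6 ± 0.791 CPM (SD, n = 3), and parental cells were 3.73-fold higher. The fitted log2 fold change was -1.90 ± 0.27 (SE), with an adjusted p of 0.259 by edgeR and 1.38e-05 by DESeq2. DNAJB9 shares exonic positions with PNPLA8 and THAP5 on the opposite strand, and the strand setting of the counting is not given in the sources used here.

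HYOU1 (ENSG00000149428, chr11:119044189-119057202), a large Hsp70-type chaperone and nucleotide exchange factor for BiP, was at 2989 CPM in parental cells, 1489.6 in clone 1, 1110.3 in clone 5 as labelled and 779 in clone 6. The log2 ratio was -1.005 (95% interval -1.013 to -0.996), -1.43 (-1.44 to -1.42) and -1.94 (-1.95 to -1.93), so that counting error was small beside the 1.91-fold spread among clones. Its fitted log2 fold change was -1.41 ± 0.48 (SE), with an adjusted p of 0.371 by edgeR and 0.114 by DESeq2. HYOU1 missed the criterion without clone 5 as labelled (-1.38) or without clone 6 (-1.20).

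The lectin chaperones calnexin and calreticulin, which bind monoglucosylated glycoproteins at the membrane and in the lumen, differed from parental cells in opposite directions. CANX (ENSG00000127022, chr5:179678628-179730925) was at 3064 CPM in parental cells, 1873 in clone 1, 1403 in clone 5 as labelled and 1351 in clone 6. CALR (ENSG00000179218, chr19:12938578-12944489) was at 851 CPM in parental cells, 2656 in clone 1, 2203 in clone 5 as labelled and 1767 in clone 6. Parental cells thus held more CANX than any clone and less CALR than any clone. The fitted log2 fold change of CANX was -0.99 ± 0.38 (SE), just short of the criterion's limit. Its adjusted p was 0.419 by edgeR and 0.191 by DESeq2, and it passed the criterion without clone 1 (-1.15). For CALR the fitted log2 fold change was 1.38 ± 0.40 (SE), a 2.60-fold higher clone mean. Its adjusted p was 0.370 by edgeR and 0.0355 by DESeq2. CALR missed the criterion without clone 5 as labelled (1.40) or without clone 6 (1.52).

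The most widely used reporters of the UPR were less clear. HSPA5 (ENSG00000044574, chr9:125234853-125241330), which encodes BiP, the chaperone that holds the sensors inactive, was at 1428 CPM in parental cells, 1182 in clone 1, 905 in clone 5 as labelled and 733 in clone 6. It was below parental in all 3 clones, past 1.5-fold in the latter pair, with a log2 fold change of -0.60 ± 0.41 (SE) and an adjusted p of 0.591 by edgeR. HSP90B1 (ENSG00000166598, chr12:103930107-103953645), which encodes GRP94, the ER Hsp90, was at 1743 CPM in parental cells and at 1339, 1657 and 1215 in clones 1, 5 as labelled and 6. Its log2 fold change was -0.31 ± 0.37 (SE), with an adjusted p of 0.758 by edgeR.

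The disulfide isomerases PDIA3, PDIA4, PDIA6 and P4HB, abundant oxidative folding enzymes, had log2 fold changes of -0.05, 0.04, 0.15 and -0.08. The first 3 had a parental level within the clones' range, and the sign of all 4 turned under at least 1 of the alternatives tried. PDIA3 also has pseudogene copies, so its reads may be divided. PDIA3P1 drew at most 592 counts in any library and PDIA3P2 at most 28, beside at least 71003 for PDIA3. TXNDC5, a further thioredoxin-domain isomerase, varied most among clones, at 143 CPM in parental cells, 80.9 in clone 1, 113 in clone 5 as labelled and 40.6 in clone 6. ERO1A, the oxidase that recharges the isomerases, and SEC61B, a subunit of the translocation channel, had log2 fold changes of -0.40 and -0.36, below parental in each clone.

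CRELD2 and SDF2L1, small ER proteins induced by stress, were highest in clone 1, as CALR was. CRELD2 was at 38.5 CPM in parental cells, 113 in clone 1, 67.0 in clone 5 as labelled and 50.3 in clone 6, with a log2 fold change of 0.99 ± 0.51 (SE) and an adjusted p of 0.539 by edgeR. Its exons overlap those of ALG12 on the opposite strand, which had 1576 unscaled counts in parental cells and 2830 to 3437 in the clones. SDF2L1 was at 48.8 CPM in parental cells, 90.9 in clone 1, 53.5 in clone 5 as labelled and 45.6 in clone 6. MANF, a secreted ER-resident factor, was likewise highest in clone 1, at 175 CPM against 135 in parental cells, and lower in the others, at 103 and 98.9. The co-chaperones DNAJB11 and DNAJC3 had log2 fold changes of -0.08 and -0.33.

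The ERAD genes had the lowest median of the 3 groups, and 3 of the 9 tested fell by the criterion, HERPUD1, SEL1L and EDEM1. HERPUD1 (ENSG00000051108, chr16:56932048-56944863), a membrane adaptor of the retrotranslocation complex, was at 225 CPM in parental cells, 61.6 in clone 1, 84.6 in clone 5 as labelled and 83.3 in clone 6. Parental cells were 2.94-fold above the clone mean, and this was 1 of 4 members with the lowest clone level in clone 1. Its fitted log2 fold change was -1.56 ± 0.32 (SE), with an adjusted p of 0.306 by edgeR and 0.00816 by DESeq2.

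SEL1L (ENSG00000071537, chr14:81471549-81533861), the scaffold of the ubiquitin ligase SYVN1 (HRD1), was at 269 CPM in parental cells, 127 in clone 1, 71.5 in clone 5 as labelled and 119 in clone 6. The library labelled clone 5 was the lowest, and all were below parental, with a log2 fold change of -1.35 ± 0.42 (SE) and an adjusted p of 0.356 by edgeR. SYVN1 itself was at 88.0 CPM in parental cells and between 62.7 and 68.9 over the clones (log2 fold change -0.41 ± 0.26 SE, adjusted p 0.570 by edgeR). Its exons overlap those of FAU, an abundant ribosomal protein gene.

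The EDEM genes encode mannosidase-like proteins that mark glycoproteins for degradation, and they did not move together. EDEM1 (ENSG00000134109, chr3:5187646-5219957) was at 122 CPM in parental cells, 58.5 in clone 1, 58.1 in clone 5 as labelled and 49.1 in clone 6, with a log2 fold change of -1.15 ± 0.27 (SE) and an adjusted p of 0.327 by edgeR and 0.0464 by DESeq2. EDEM3 (ENSG00000116406, chr1:184690231-184754913) was at 46.6 CPM in parental cells and at 28.8, 25.8 and 29.2 in clones 1, 5 as labelled and 6, with a log2 fold change of -0.74 ± 0.28 (SE). EDEM2 was at 38.2 CPM in parental cells and between 32.2 and 46.0 in the clones, so its parental level was inside their range.

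DERL1 (ENSG00000136986), a derlin of the retrotranslocation channel, was at 93.8 CPM in parental cells and at 54.5, 51.7 and 54.0 in clones 1, 5 as labelled and 6. These clone levels agreed most closely of all members, within 1.05-fold. The log2 fold change was -0.81 ± 0.25 (SE), with an adjusted p of 0.357 by edgeR and 0.172 by DESeq2. DERL2 had a log2 fold change of -0.29. OS9, a lectin that delivers glycoproteins to the SEL1L complex, was at 353 CPM in parental cells, 308 in clone 1, 726 in clone 5 as labelled and 471 in clone 6, and among the 9 ERAD members tested it alone was higher than parental by over 1.5-fold in a clone.

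In all, 22 members tested neither met the criterion nor passed 1.5-fold the same way in all clones. Their log2 fold changes ran from -0.87 (TXNDC5) to 0.99 (CRELD2), with a median of -0.16, and their adjusted p from 0.539 to 0.976 by edgeR. The parental level lay within the clones' range in 10 of them, above it in 11 and below it in 1.

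**Figure D3:**
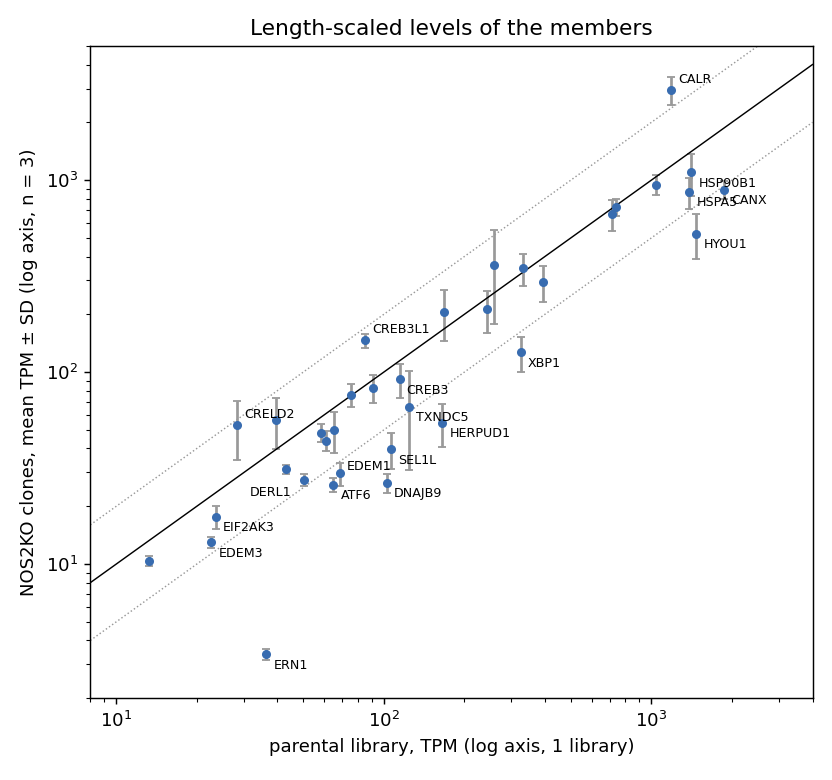
Length-scaled level of the 35 members tested, as TPM (transcripts per 1000000) in the parental library (horizontal log axis) against the mean of the 3 NOS2KO clones with SD (vertical log axis); the solid line marks equal levels and the dotted lines 2-fold. CALR lies above the upper dotted line (1188 against 2942 TPM) and ERN1 far below the lower one (36.3 against 3.38 TPM).

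Levels of different genes were compared per exon length, as TPM over all genes. In parental cells the most abundant members were CANX at 1861 TPM (rank 1 of 36), HYOU1 at 1471, HSP90B1 at 1408, HSPA5 at 1384 and CALR at 1188, an order to which 1 library gives no spread. In the clones CALR came first, at 2942 ± 494 TPM (SD, n = 3), followed by HSP90B1 at 1097 ± 271, P4HB at 948 ± 116, CANX at 892 ± 98.7 and HSPA5 at 867 ± 163, of which the last 4 did not differ beyond their spread. HYOU1 went from rank 2 to rank 8, at 527 ± 140.0 TPM. ERN1 was the least abundant of the sensors in the clones, at 3.38 ± 0.233 TPM (rank 35), below EIF2AK3 at 17.7 ± 2.48 and ATF6 at 26.0 ± 2.24, whereas in parental cells it was at 36.3 TPM, between EIF2AK3 at 23.5 and ATF6 at 64.8. XBP1 went from 325 TPM to 127 ± 26.2. DERL3 was last in both groups, at 0.0442 TPM in parental cells and 0.0642 ± 0.0298 in the clones.

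The clones differed from each other in a recurring order. Clone 1 had the highest level of the 3 in 23 of 35 members (65.7%, against 43.3% of genes with at least 1 CPM), and clone 6 the lowest in 25 (71.4%, against 29.7%). The full order of clone 1, clone 5 as labelled and clone 6 was seen in 19 members (54.3%, against 20.3% of genes). All 8 sensors and factors were highest in clone 1 and 7 of them lowest in clone 6, whereas of the ERAD genes 4 were highest in clone 1 and 3 lowest in clone 6. The ratio of the highest to the lowest clone had a median of 1.37 and ran from 1.05 (DERL1) to 2.79 (TXNDC5), with OS9 at 2.36 and CRELD2 at 2.24.

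Between clones 1 and 6, 13 members differed by over 1.5-fold (37.1%, against 38.3% of genes), whereas 5 did between clone 1 and clone 5 as labelled (14.3%, against 39.6%) and 4 between the latter and clone 6 (11.4%, against 19.7%). From parental cells, each clone differed by that margin in 17 members (48.6%, against 46.2% to 46.6% of genes). As a share, the members thus differed from parental cells about as often as genes in general, and their differences lay mostly on the lower side.

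The 9 members with an ERSE or ERSE-II in the window had a median log2 fold change of -0.60, from -1.56 (HERPUD1) to 1.38 (CALR), with 3 lower and 1 higher by the criterion. The 24 with a window but neither element had a median of -0.31, from -3.35 (ERN1) to 0.86 (CREB3L1), with 5 lower and none higher. Of the printed promoters, those of HERPUD1, HYOU1 and XBP1 belonged to genes that fell and that of CALR to one that rose. Outside the 36 genes, either element was found in 27 genes, of which 17 were tested. Their median was 0.36, with 5 below 0 and 12 above, and by the criterion FICD (-1.92), SERP1 (-1.14) and ERO1B (-1.09) fell and NUCB1 (1.31) rose.

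For context, 131 other genes of the same pathway were listed by function, and 130 were tested. By the criterion 18 fell and 2 rose, where 5.34% of the 22511 genes tested fell and 4.24% rose. The median log2 fold change of the 130 was -0.24. Of the 18 falls, 9 came from the PERK and ATF4 arm, the branch that links translation control to amino acid metabolism and apoptosis. The arm had 13 genes and a median of -2.31. Below 0 were 12 of them, and 1 was higher than parental by over 1.5-fold in all 3 clones.
ATF4, its central transcription factor, was at 593 CPM in parental cells, 157 in clone 1, 248 in clone 5 as labelled and 273 in clone 6 (log2 fold change -1.39 ± 0.42 SE). DDIT3, which encodes CHOP, was at 98.1 CPM in parental cells and at 6.02, 11.9 and 11.1 in clones 1, 5 as labelled and 6 (log2 fold change -3.34 ± 0.47 SE). The other genes of the arm that fell were TRIB3 (-3.96), PPP1R15A (-1.81), CHAC1 (-5.79), SESN2 (-2.31), NUPR1 (-2.76), CEBPB (-2.39) and ASNS (-3.98), which are known targets or partners of ATF4. Adjusted p in the arm's fallen genes ran from 0.182 to 0.378 by edgeR.

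The medians of the remaining lists ran from -0.35 to 0.07. Of 18 translocon and signal peptidase genes, SEC63 (-1.47), SRPRB (-1.16) and SERP1 (-1.14) fell and none rose, with a median of -0.35. Of 22 further ERAD genes, SELENOS (-1.14) and RHBDD1 (-1.19) fell, with a median of -0.30. Of 25 further folding enzymes, ERO1B and DNAJC1 (-1.01) fell, with a median of -0.12. Of 16 N-glycosylation genes, OST4, a subunit of oligosaccharyltransferase, rose (1.25) and none fell, with a median of -0.14. Of 21 genes of ER to Golgi transport, the cargo receptor LMAN1 (-1.02) fell and the coat subunit SEC13 (1.10) rose, with a median of -0.11. Of 15 further sensors and regulators, the calcium release channel ITPR1 (-2.07) fell, with a median of 0.07.

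**Figure D4:**
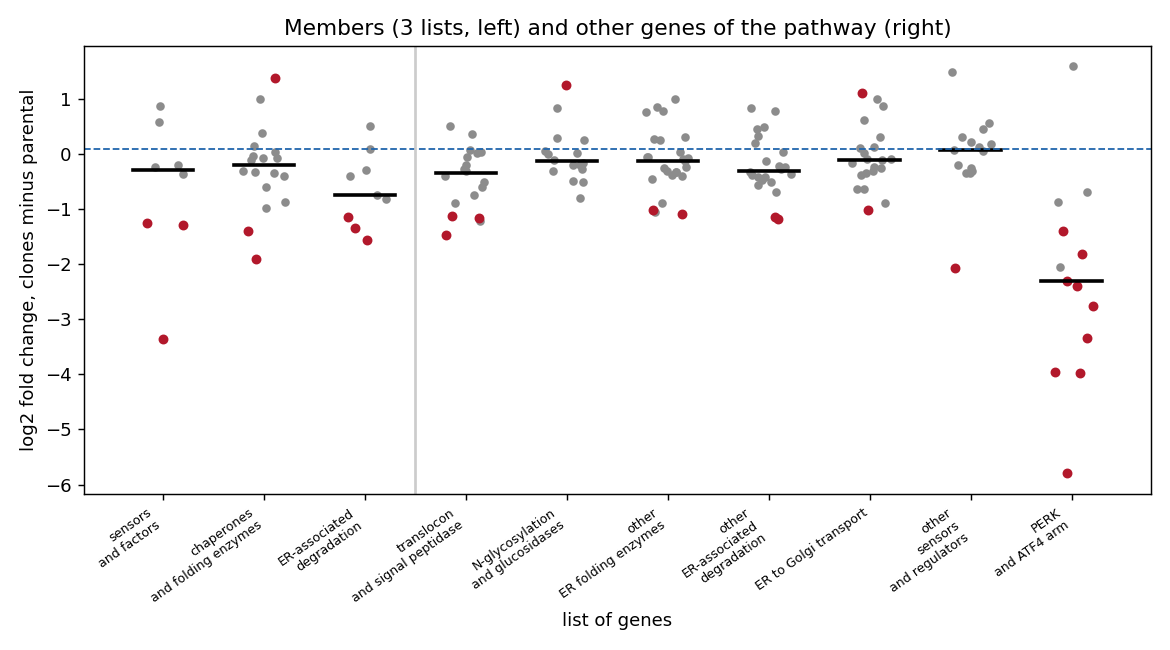
Log2 fold change, clones minus parental (vertical axis), of the members in 3 lists (left) and of other pathway genes in 7 lists (right); each point is 1 gene, red points met the criterion, black bars are medians and the dashed line is the median of all genes tested (0.10). The PERK and ATF4 arm lies lowest, with a median of -2.31, and ERAD lies lowest among the members' lists, with -0.74. The dashed line includes genes under 1 CPM in every library.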

How the data were processed

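The authors deposited raw counts per gene, with no normalization, for 1 parental and 3 NOS2KO SUM159 libraries. Per the labels, poly(A) RNA was made into paired-end libraries, and the submitters' processing notes name bcl2fastq 2.17, Trimmomatic 0.36, STAR 2.5.2b, featureCounts of Subread 1.5.2, DESeq2 and GRCh38, with no role or order. The strand setting and the treatment of multi-mapping reads are not given in the sources used here. Of the 36 members, 36 had the coordinates of GENCODE 29, and 20 share exonic positions with another gene.

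Clones were tested against parental cells using edgeR 4.0.16 under R 4.3.3 (low counts removed with filterByExpr, TMM scaling, quasi-likelihood F-test, Benjamini-Hochberg adjustment over 22511 genes). The spread came from the clones (2 residual and 2.75 prior degrees of freedom, common dispersion 0.319) and is assumed for parental cells. An exact permutation of 1 against 3 libraries cannot reach 0.05, and nothing in the labels says whether the clones' cultures were replicated. Ratios of each clone to the parental library used TMM-scaled CPM, with 0.5 CPM added when counted against 1.5-fold. TPM were computed from the exon lengths in the files. Alternatives were other scalings, filters, DESeq2 1.42.0, other quasi-likelihood fits and leaving out each clone. The scripts were tested on simulated data.

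The members, gene lists, criterion and naming rule were chosen with earlier results of these data known. All members are named. Values per library are given for members that met the criterion or passed 1.5-fold in all clones, for the sensors, XBP1 and CREB3, for the classical targets HSPA5, HSP90B1 and HERPUD1, and, chosen after their values were seen, for WFS1, TXNDC5, CRELD2, SDF2L1, MANF, SYVN1, EDEM2 and OS9. Of other pathway genes, those that met the criterion are named. Promoter sequences are those of RefSeq.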

Additional observations from a re-analysis of the deposited data

How the results depend on the processing

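No paired analysis was possible because there was 1 parental library, whose number pairs it with no clone. With DESeq2, 6 members had an adjusted p under 0.05 instead of 0. The share of all genes called was not counted for DESeq2 or for the other alternatives. The counts of members given here therefore have no background beside them. The criterion gave 8 lower members under every scaling, filter and test tried, 6 to 9 when a clone was left out and 11 with a 1.5-fold limit. It gave 0 to 1 higher members when a clone was left out, with CALR lost without clone 5 as labelled (log2 fold change 1.40) or clone 6 (1.52). Lost calls were XBP1 without clone 6 (-1.12) and HYOU1 without clone 5 as labelled (-1.38) or clone 6 (-1.20), and CANX was gained without clone 1 (-1.15). The median of ERAD genes (-0.74) was -0.64 with upper quartile scaling, -0.56 with no filter, which lets DERL3 in, and -0.76 to -0.57 when a clone was left out. With a 2-fold limit, 7 members were lower and 1 higher in all clones, and at 1.5-fold, 2 to 4 were higher when a clone was left out. Upper quartile scaling moved the median of all genes by 0.104, other scalings by at most 0.0211. No called member changed direction under these alternatives. Signs turned only for DNAJB11, MANF, PDIA3, PDIA4, PDIA6, P4HB and EDEM2, all near 0. Leaving out a clone left 1 residual degree of freedom, and the lone parental library is assumed to vary like the clones. Depth did not limit the 35 members tested, whose lowest count was 920, and it left DERL3 near the limit of detection.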
